A study of Mus musculus with 23 samples.

Results

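Matrix metalloproteinases, plasminogen activators and a tissue inhibitor of metalloproteinases were followed across 5 groups of mouse embryonic fibroblasts with different p53 genotypes, all expressing the oncogene H-Ras V12. The set was chosen by gene symbol: Mmp2, Mmp3, Mmp9, Mmp10, Mmp13, Mmp14, Timp1, Plau and Plat, with every probe set of the array that carries one of these symbols alone. It held 9 of the 18193 genes with a probe set, on 15 of 34945 probe sets. All 9 genes were among the 15266 that passed the filter on low values, and each of their 15 probe sets lay above the filter level on all 23 arrays. Where a gene had several probe sets, the one with the highest mean over all arrays stands for it. Values are log2 of the deposited intensity, so a difference of 1 is a doubling, and the level of one gene is not set against that of another.

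Each sample was 1 array of fibroblasts infected with retroviral H-Ras V12, which by the study's design text brings on premature senescence where p53 is wild type and not where it is missing. The 25,26 group (n = 5) expressed p53 with the first transactivation domain disrupted (L25Q and W26S), the 53,54 group (n = 3) with the second disrupted (W53Q and F54S) and the QM group (n = 3) with all of these changes. These alleles were knock-ins behind a stop cassette (LSL), and the cells had received adenovirus with Cre recombinase, which removes the cassette. The WT group (n = 6) was made of LSL-WT knock-in cells given the Cre virus (replicates 1 to 3) and of cells titled WT given the Cre virus (replicates 4 to 6). The Null group (n = 6) was made of LSL-WT cells given an Empty adenovirus, in which the cassette stays in place (replicates 1 to 3), and of p53-null cells given the Cre virus (replicates 4 to 6). These 4 sets are called LSL-WT Cre, WT Cre, LSL-WT Empty and Null Cre. The background was 129/Sv or a 129/Sv and C57BL6 mix: the numbers of arrays of each were 4 and 2 in Null, 2 and 1 in QM, 4 and 1 in 25,26, 1 and 2 in 53,54 and 3 and 3 in WT. The share of cells in which Cre acted is not given, WT replicate 6 has a genotype label that reads LSL-WT although its title reads WT, the label of Null replicate 6 adds the word knock-in, and the replicates are called biological samples without a word on separate embryos, so that p-values measure only the spread between these samples.

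Matrix metalloproteinases are zinc endopeptidases, most of them secreted as inactive precursors, that cut collagens, proteoglycans and other proteins around the cell. The plasminogen activators Plau and Plat turn plasminogen into plasmin, a serine protease that degrades fibrin and can activate metalloproteinase precursors, and Timp1 binds and blocks active metalloproteinases. Several of these genes belong to the secretory programme described for senescent fibroblasts, and stromelysin and collagenase genes are textbook targets of AP-1, the Fos and Jun transcription factors that act downstream of Ras.

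The promoters of the 3 secreted metalloproteinase genes that lie in one cluster are shown because they share a sequence element and because 2 of these genes, Mmp10 and Mmp13, varied together in the data below. On chromosome 9 the annotated Mmp genes run in the order Mmp13, Mmp12, Mmp1b, Mmp3, Mmp1a, Mmp10, Mmp8, Mmp27, Mmp20 and Mmp7, 10 genes in all. The sequences are from RefSeq on build GRCm38.p6, plus strand, 5′ to 3′, and cover the 250 bases before the annotated transcription start. Capitals mark the AP-1 element TGACTCA or its reverse complement TGAGTCA.
Mmp13 (chr9:7272264-7272513): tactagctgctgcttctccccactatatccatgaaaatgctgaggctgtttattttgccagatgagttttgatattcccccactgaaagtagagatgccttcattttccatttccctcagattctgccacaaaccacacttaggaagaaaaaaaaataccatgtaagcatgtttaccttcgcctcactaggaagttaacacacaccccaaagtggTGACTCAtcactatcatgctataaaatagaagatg
Mmp3 (chr9:7445572-7445821): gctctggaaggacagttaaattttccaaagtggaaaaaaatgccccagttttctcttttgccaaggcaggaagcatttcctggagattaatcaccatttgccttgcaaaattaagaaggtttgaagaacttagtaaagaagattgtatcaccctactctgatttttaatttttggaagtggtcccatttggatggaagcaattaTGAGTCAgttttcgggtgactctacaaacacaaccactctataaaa
Mmp10 (chr9:7502092-7502341): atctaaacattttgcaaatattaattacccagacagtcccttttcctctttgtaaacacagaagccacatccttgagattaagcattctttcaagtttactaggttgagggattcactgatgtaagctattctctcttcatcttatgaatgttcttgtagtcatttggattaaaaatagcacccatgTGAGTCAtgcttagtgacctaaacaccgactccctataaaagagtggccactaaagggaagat
The element began 35 bases before the start in Mmp13 (position -35), 46 before it in Mmp3 (-46) and 63 before it in Mmp10 (-63). It was searched on both strands in windows of 300 bases, from 250 before to 50 after the start. Of the 5 genes of the set with such a window, Mmp13, Mmp3 and Mmp10 held it, and the windows of Mmp14 and Timp1 did not contain these letters. It was present in 1709 of all 32851 windows, or 5.2%. A match describes the letters only and says nothing of what binds there in these cells.

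Over the 5 groups, 1 of the 9 genes differed at an adjusted p under 0.05 (limma, Benjamini-Hochberg adjustment over 15266 genes), and 21.1% of all genes did. The gene was Timp1, with an adjusted p of 0.0116 and group means that spanned 0.63. Mmp3 followed at an adjusted p of 0.0785 with means that spanned 0.88, and passed without WT replicate 1, WT replicate 3 or Null replicate 2 (adjusted p of 0.0224 to 0.0443). Without any other single array Mmp3 did not pass, with adjusted p up to 0.211. The other 7 genes had adjusted p of 0.308 or more. In the 9 contrasts between groups, which made 81 tests of single genes, 2 tests passed: Mmp3 and Timp1 in 25,26 against WT. The intervals of 42 of the 81 differences lay within 1 log2 unit on either side of 0, while the widest reached 1.83 to each side of its estimate.

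**Figure D1:**
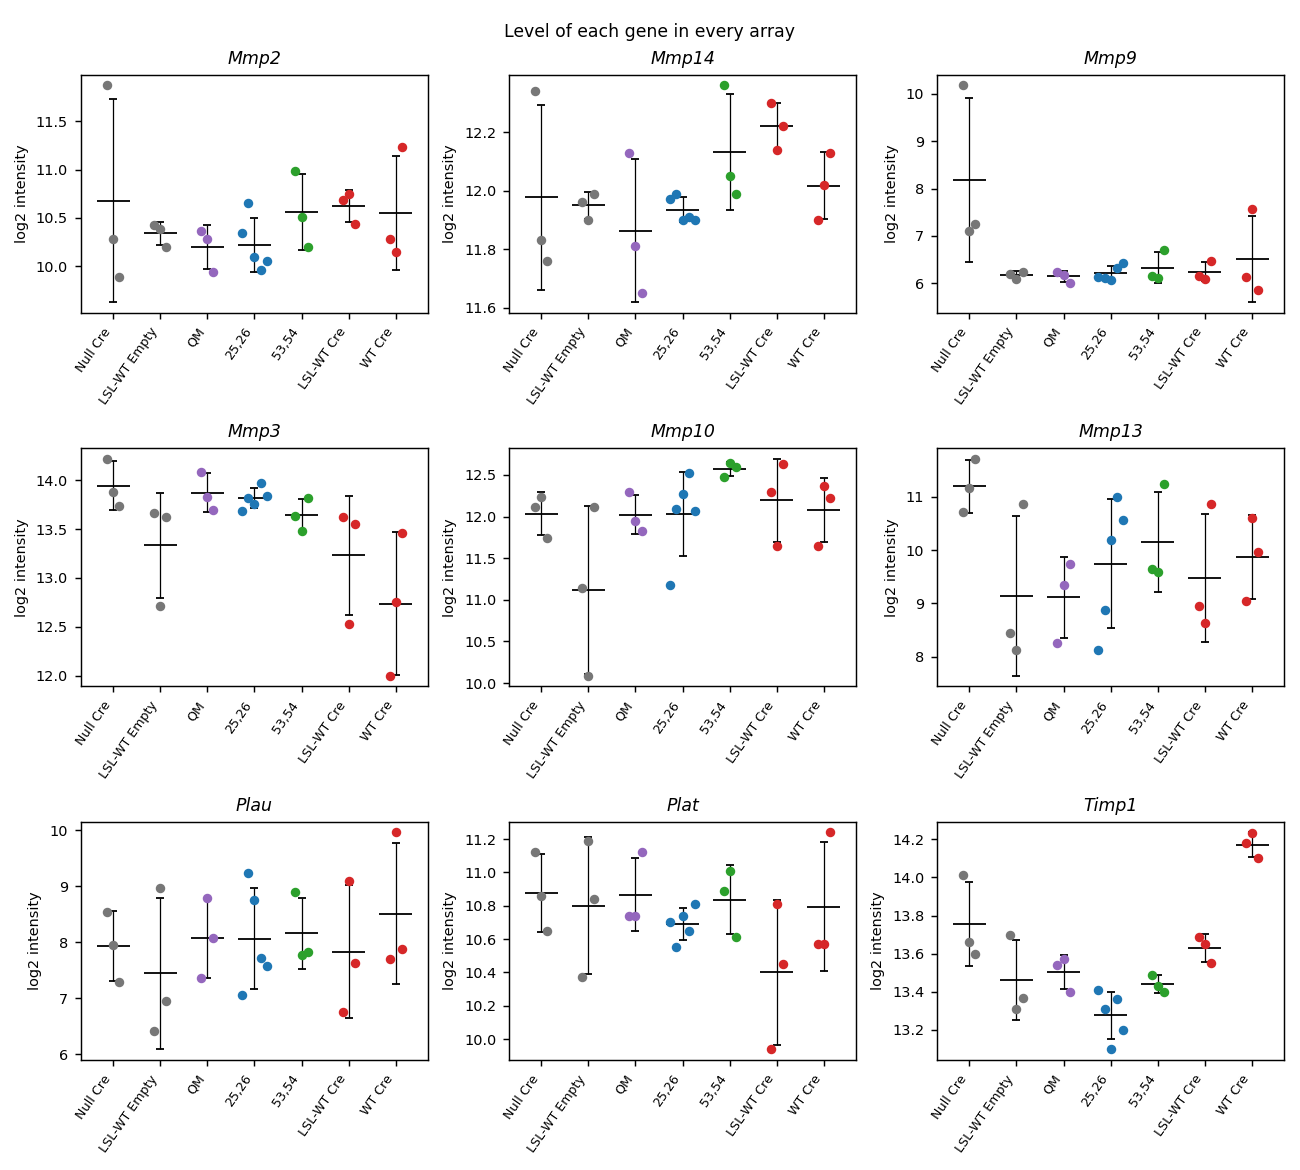
Log2 intensity (y axis) of each of the 9 genes on all 23 arrays, by set of arrays (x axis). Points are arrays, long bars are means and whiskers are the SD. Timp1 is highest on the 3 WT Cre arrays (14.10 to 14.23), and Mmp9 and Mmp2 each have 1 Null Cre array far above the rest (10.18 and 11.87).

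The gelatinases Mmp2 and Mmp9 cut denatured collagen and the type IV collagen of basement membranes. Mmp2 (probe set 1439364_a_at) lay between 9.89 and 11.87 in Null, with a median of 10.34, and between 10.15 and 11.23 in WT, with a median of 10.56. Its levels were 10.34, 10.65, 10.10, 9.96 and 10.06 in the 25,26 arrays, 10.98, 10.51 and 10.20 in 53,54 and 10.37, 10.28 and 9.94 in QM. All groups overlapped, and the value of 11.87 was Null replicate 4, a Null Cre array. From lowest to highest mean the order was QM, 25,26, Null, 53,54 and WT, from 10.20 to 10.59, and no 2 groups differed beyond the test. In LSL-WT Cre the 3 arrays (10.69, 10.75 and 10.44) lay above the 3 LSL-WT Empty arrays (10.43, 10.39 and 10.20), with a log2 difference of 0.29 ± 0.36 (SE; 95% interval -0.47 to 1.05; adjusted p = 0.769). These arrays pair by title number and are listed in that order. The SE leaves the pairing out, so it does not measure the spread of the differences within pairs. The second Mmp2 probe set followed the first with r = 0.98 over the arrays.

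Mmp9 (probe set 1416298_at) was near 6 on most arrays and raised on a few. The 3 Null Cre arrays stood at 10.18, 7.10 and 7.26, and the 3 LSL-WT Empty arrays at 6.20, 6.08 and 6.23. In 25,26 the levels were 6.14, 6.11, 6.06, 6.32 and 6.42, in 53,54 they were 6.16, 6.12 and 6.71, and in QM they were 6.24, 6.18 and 6.01. LSL-WT Cre arrays had 6.16, 6.09 and 6.47, and WT Cre arrays 6.13, 7.56 and 5.86. Thus the only arrays above 7 were all 3 Null Cre arrays and WT replicate 5. The LSL-WT Empty arrays of the Null group lay within the range of the other groups.

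Against the whole Null group the log2 differences of Mmp9 were -0.79 ± 0.48 in WT, -0.96 ± 0.50 in 25,26, -0.84 ± 0.58 in 53,54 and -1.03 ± 0.58 in QM (SE), with adjusted p from 0.274 to 0.9998. These comparisons share the Null arrays. With the Null Cre arrays alone as Null, the values were -1.80 in WT (adjusted p = 0.0135), -1.97 in 25,26 (adjusted p = 0.0369), -1.85 in 53,54 (adjusted p = 0.0296) and -2.03 in QM (adjusted p = 0.247). These 3 arrays include Null replicate 4, at 10.18, and no value of this setting without it is given here. All 3 had the 129/Sv background and were low in Xist, the transcript of the inactive X (5.72 to 6.81), while the median Xist level in 25,26 was 12.21. Without Null replicate 4 the differences from the whole group shrank to -0.19 in WT, -0.36 in 25,26, -0.24 in 53,54 and -0.43 in QM. Null Cre exceeded LSL-WT Empty by 2.01 ± 0.53 with no overlap, at an adjusted p of 0.183 and an unadjusted p of 0.00130. In that contrast, which was added after the data were seen, 0 of 9 genes passed, 4 had an unadjusted p under 0.05, and 0.216% of all genes passed. The second Mmp9 probe set followed the first with r = 0.98.

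On the array with the highest Mmp9, Null replicate 4, S100a8, a calcium-binding protein gene of neutrophils that other cells can also express, stood at 8.58 against 4.88 to 6.96 on the other Null arrays. The summed intensity of the 6 neutrophil markers with a probe set, S100a8 among them, was 548 there. It was 302 at the lowest in Null Cre and 193 to 210 in LSL-WT Empty. The granule genes Mpo, Ngp and Elane were at 4.63, 4.66 and 4.98 on that array, below the other Null arrays. S100a9, also on the neutrophil list, was at 4.26 against 4.30 to 4.50 on them. Camp, another granule gene, was at 6.03 against 5.00 to 5.99 on them. Ptprc, the pan-leukocyte gene, was at 3.90, below the filter level of 4.79. The summed intensity of the 10 fibroblast markers was 151500 on that array, against 93540 to 116300 on the other Null arrays. Vim and S100a4 lay within the range of the other Null arrays, and the remaining fibroblast markers above it. WT replicate 5 had S100a8 at 7.67, against 4.84 to 7.06 on the other WT arrays. The endothelial genes Cdh5, Kdr, Tek, Tie1 and Pecam1 were at 6.88, 7.22, 5.73, 4.85 and 4.72, each above every other WT array. Of these Pecam1 was below the filter level. Their summed intensity was 375, against 212 to 235 on the other WT arrays. In bulk samples a change in the number of cells of a type and a change of RNA per cell cannot be told apart, and the part of these markers in the Mmp9 values was not tested. Over the 23 arrays the levels most like those of Mmp9 were those of Clstn2 (r = 0.92), Lcn2, the secreted lipocalin (r = 0.87), and Rarres2, the adipokine chemerin (r = 0.87). Rank correlations were lower, at 0.55, 0.64 and 0.35.

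Mmp14 encodes the membrane-anchored collagenase that activates the Mmp2 precursor at the cell surface, with Timp2 as the docking partner. Its brightest probe set, 1448383_at, lay between 11.65 and 12.36 over all arrays. It ran from 11.76 to 12.34 in Null (median 11.93) and from 11.90 to 12.30 in WT (median 12.13). In 25,26 the arrays lay within 11.90 to 11.99, while 53,54 had 12.36, 12.05 and 11.99, and QM had 12.13, 11.81 and 11.65. The order of means was QM, 25,26, Null, WT and 53,54. No contrast passed, and WT exceeded Null by 0.15 ± 0.10 (95% interval -0.05 to 0.36, adjusted p = 0.313). As with Mmp2, the LSL-WT Cre arrays (12.30, 12.14 and 12.22) all lay above the LSL-WT Empty arrays (11.96, 11.90 and 11.99), by 0.27 ± 0.14 (adjusted p = 0.267). Here too the arrays are listed by title number and the SE leaves their pairing out. The other Mmp14 probe sets spread more. Probe set 1416572_at ran from 10.66 to 11.66 (r = 0.81 with the first) and 1440920_at from 7.87 to 9.31 (r = 0.70). When all probe sets were tested, none of Mmp14 passed in any contrast.

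Mmp2 and Mmp14 had the closest relation of the 36 pairs in the set. Their levels correlated with r = 0.77 (rho = 0.78, n = 23 arrays), with r = 0.80 without the 2 arrays farthest from the median of Mmp2 and with r = 0.77 after group means were removed. The arrays share groups and embryonic backgrounds, so this describes these arrays. The genes most like Mmp2 were B3gnt9 (r = 0.82), Mxra8, a matrix-remodelling membrane protein gene (r = 0.81), and Gpr153 (r = 0.80). Those most like Mmp14 were Arfgap1, a regulator of Golgi vesicle transport (r = 0.82), Gsto1, a glutathione transferase (r = 0.79), and Cacfd1 (r = 0.79).

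The stromelysins Mmp3 and Mmp10 cut proteoglycans, laminin and fibronectin and can activate other metalloproteinases. Mmp3 (probe set 1418945_at) was lowest in the WT group. The Null Cre arrays had 14.22, 13.88 and 13.74, the LSL-WT Empty arrays 13.67, 12.71 and 13.62, the LSL-WT Cre arrays 13.62, 12.53 and 13.55, and the WT Cre arrays 12.00, 12.75 and 13.46. In 25,26 they lay close together at 13.69, 13.82, 13.76, 13.97 and 13.84, 53,54 at 13.63, 13.48 and 13.82, and QM at 14.09, 13.83 and 13.70. Every 25,26 and QM array was above every WT array. The order of means was WT (12.99), Null (13.64), 53,54 (13.64), 25,26 (13.82) and QM (13.87).

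In 25,26 Mmp3 was higher than in WT by 0.83 ± 0.25 (95% interval 0.30 to 1.36; adjusted p = 0.0486), a ratio of 1.78. In that contrast, fitted without the title number, 2 of the 9 genes passed, Mmp3 upwards and Timp1 downwards, where 7.70% of all genes did. The Mmp3 call was close to the threshold. It ended when any 1 of 8 arrays was left out (each of the 5 25,26 arrays, or WT replicate 2, 4 or 5), with differences of 0.63 to 0.86 and adjusted p of 0.0711 to 0.116. The arrays of 25,26 and WT pair by title number. With the number as a replicate block the Mmp3 difference was 0.77 ± 0.29 and did not pass (adjusted p = 0.0990). With LSL-WT Cre arrays alone as WT it was 0.58 (adjusted p = 0.293). In QM the difference from WT was 0.88 ± 0.30 (adjusted p = 0.0508), in 53,54 it was 0.66 ± 0.30 (adjusted p = 0.634). The QM difference passed without WT replicate 1, 3 or 6 (0.98 to 1.01, adjusted p of 0.0240 to 0.0349). Without any other single array of QM or WT it did not pass, with values down to 0.69 and adjusted p up to 0.203. In QM against WT, 0 of 9 genes passed against 13.9% of all genes, and 2 had an unadjusted p under 0.05. In 53,54 against WT, 0 of 9 passed against 0.367%, also with 2 at an unadjusted p under 0.05. All 3 contrasts share the WT arrays.

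Against Null, Mmp3 in WT differed by -0.65 ± 0.24 (95% interval -1.16 to -0.15; adjusted p = 0.0571), and the groups overlapped. In this contrast 0 of the 9 genes passed, 2 (Mmp3 and Timp1) had an unadjusted p under 0.05, and 22.7% of all genes passed. The median difference of the 9 genes was 0.08, against 0.00 over all genes tested. Mmp3 passed without WT replicate 1 (-0.78), WT replicate 3 (-0.77), WT replicate 6 (-0.75) or Null replicate 2 (-0.84), and with Null Cre arrays alone as Null (-0.96, adjusted p = 0.0174). Without any other single array of WT or Null it did not pass, with values as small as -0.46 and adjusted p up to 0.154. With strain as a covariate it was -0.71 (adjusted p = 0.0279). With the level of Xist, the transcript of the inactive X, as a covariate it was -0.42 (adjusted p = 0.222). The differences of Mmp3 from Null in 25,26, 53,54 and QM were 0.18 ± 0.25, 0.00 ± 0.30 and 0.23 ± 0.30.

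**Figure D2:**
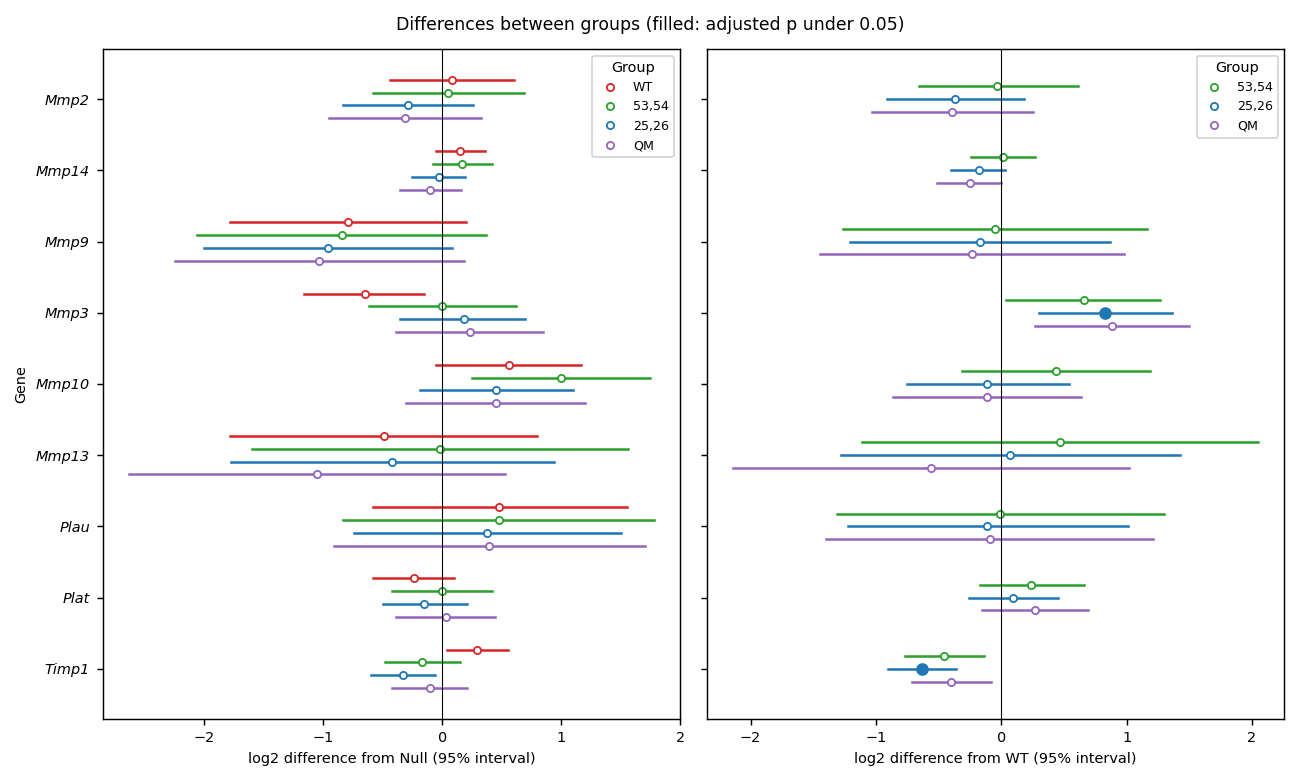
Log2 differences (x axis) with 95% intervals for the 9 genes (y axis) from Null, left, and from WT, right, coloured by group. Filled points passed an adjusted p of 0.05: Mmp3 (0.83) and Timp1 (-0.63) in 25,26 against WT. The intervals of Mmp9, Mmp13 and Plau are the widest.

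The genes most like Mmp3 were Lum, the matrix proteoglycan lumican (r = 0.86), Pdgfra, the platelet-derived growth factor receptor (r = 0.84), and Hopx (r = 0.84). Lum and Pdgfra are on the fibroblast marker list, of which WT against Null called 5 of 10, all lower, where 22.7% of all genes were called. The summed intensity of that list ran from 93540 to 151500 in Null and from 72930 to 104800 in WT. The part of this shift in the Mmp3 values was not tested.

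Mmp10 (probe set 1420450_at) was lowest in LSL-WT Empty cells. Those 3 arrays had 11.14, 10.09 and 12.11, and the Null Cre arrays had 12.12, 12.24 and 11.74. The 53,54 group had the highest mean and the narrowest range, at 12.47, 12.64 and 12.60. The 25,26 arrays had 11.18, 12.09, 12.27, 12.52 and 12.07, and the QM arrays 12.29, 11.95 and 11.83. LSL-WT Cre arrays had 12.30, 11.65 and 12.63, and WT Cre arrays 11.64, 12.37 and 12.22. The 53,54 arrays lay above every Null array and above every QM array.

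In 53,54 the difference of Mmp10 from Null was 1.0 ± 0.36 (95% interval 0.25 to 1.75; adjusted p = 0.0569), a ratio of 2.0. In that contrast 0 of 9 genes passed, 1 had an unadjusted p under 0.05, and 19.6% of all genes passed. Mmp10 passed when Null replicate 3, 4 or 5 was left out (1.11, 1.11 and 1.13; adjusted p of 0.0339 to 0.0425). It was 0.70 without Null replicate 2 (adjusted p = 0.0871), and without each other array it ran from 0.91 to 1.05 and did not pass, with adjusted p up to 0.166. The arrays of 53,54 and Null pair by title number, and with the number as a replicate block Mmp10 differed by 0.9 ± 0.35 (adjusted p = 0.0623). With strain as a covariate it differed by 0.91 (adjusted p = 0.0870), and with the Xist level by 1.1 (adjusted p = 0.0169). Its differences from Null were 0.56 ± 0.30 in WT, 0.45 ± 0.31 in 25,26 and 0.45 ± 0.36 in QM, each with overlap. In 25,26 against Null 0 of 9 genes passed, with 4.30% of all genes and 1 gene, Timp1, at an unadjusted p under 0.05. In QM against Null 0 of 9 passed, with 0.0131% of all genes, and 0 had an unadjusted p under 0.05, as had 377 of all 15266.

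The 25,26 and 53,54 groups were each compared with QM. In 25,26 against QM 0 of 9 passed and 0.675% of all genes did. In 53,54 against QM 0 of 9 passed and 13.3% of all genes did. With limma, 0 of the 9 had an unadjusted p under 0.05 in either contrast, while 1420 and 3687 of all genes had. For Mmp10 the 53,54 arrays exceeded QM by 0.55 ± 0.42 without overlap (95% interval -0.32 to 1.42). For Mmp13 the difference of 53,54 from QM was 1.03 (interval -0.79 to 2.86), too wide to show that these groups are alike.

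The interstitial collagenase Mmp13 cuts fibrillar collagen and is a marker of hypertrophic cartilage and bone. Its probe set 1417256_at spread widely within every group. Null ran from 8.12 to 11.71 (median 10.78) and WT from 8.64 to 10.86 (median 9.50). The 25,26 arrays had 8.13, 8.87, 10.18, 10.99 and 10.57, 53,54 had 9.64, 9.58 and 11.23, and QM had 8.26, 9.35 and 9.73. The order of means was QM, WT, 25,26, 53,54 and Null, spanning 1.05, less than the pooled SD of 1.16 within groups. No group contrast passed. The largest, QM minus Null, was -1.05 ± 0.76 with an interval of -2.63 to 0.53. Of the cartilage and bone markers, Ibsp, a bone matrix gene, lay between 3.75 and 4.30 over all arrays, below the filter level, and Sox9, the cartilage factor, between 9.40 and 10.35.

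Mmp10 and Mmp13 correlated with r = 0.57 (rho = 0.49, n = 23), and with r = 0.75 after group means were removed. Mmp3 and Mmp10 had r = 0.40, and 0.72 after group means were removed. Without the 2 arrays farthest from the median of Mmp10, its r with Mmp13 was 0.42. Only 2 of the 36 pairs had r over 0.5, Mmp2 with Mmp14 and Mmp10 with Mmp13, and 0 had r under -0.5. The genes most like Mmp10 were C1galt1, a glycosyltransferase gene (r = 0.83), its chromosomal neighbour Mmp1a (r = 0.82) and the chemokine receptor gene Ccr1 (r = 0.80). Those most like Mmp13 were Stx11, a syntaxin (r = 0.87), Hp, haptoglobin (r = 0.85), and Zc3h12a, an RNase that degrades inflammatory transcripts (r = 0.85).

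**Figure D3:**
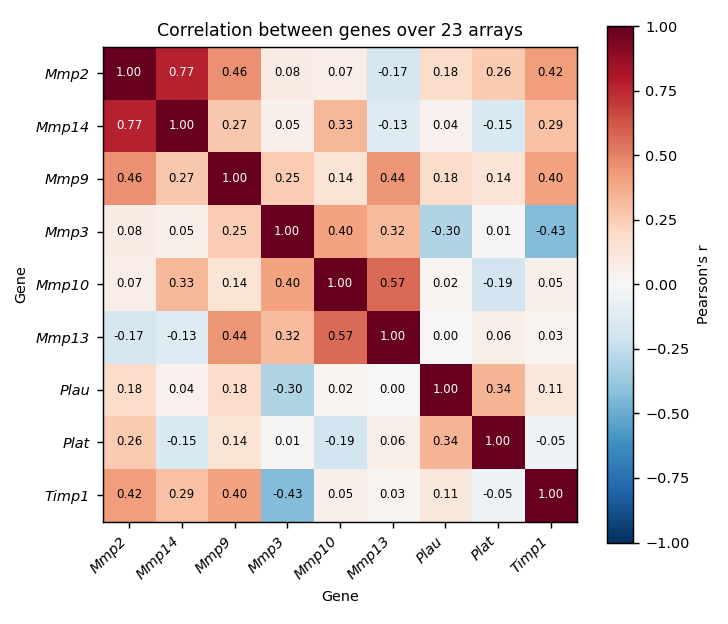
Pearson's r between the log2 levels of the 9 genes over the 23 arrays, with both axes listing the genes and colour running from -1 (blue) to 1 (red). Mmp2 with Mmp14 (0.77) and Mmp10 with Mmp13 (0.57) stand out among the 36 pairs.

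Plau encodes urokinase, the plasminogen activator that acts at the cell surface through its receptor Plaur, and Plat encodes the tissue-type activator. Plau (probe set 1422139_at) ran from 6.41 to 8.97 in Null (median 7.62) and from 6.75 to 9.96 in WT (median 7.78). The 25,26 arrays had 7.05, 9.23, 8.76, 7.71 and 7.57, 53,54 had 8.89, 7.77 and 7.82, and QM had 7.35, 8.79 and 8.08. Group means spanned 0.48, less than the pooled SD of 0.96 within groups. The differences from Null were 0.48 ± 0.51 in WT, 0.38 ± 0.54 in 25,26, 0.48 ± 0.63 in 53,54 and 0.39 ± 0.63 in QM, and no group contrast passed.

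The spread of Plau followed the number in the sample titles, whose meaning the labels do not give. The 7 arrays numbered 2 had 8.54 to 9.96, the 5 numbered 1 had 6.41 to 7.69, the 7 numbered 3 had 6.94 to 8.76 and the 3 numbered 4 had 7.29 to 7.82. The arrays numbered 2 came from 7 different sets of arrays, and in each set theirs was the highest Plau value. The array numbered 5 had 7.57. Mmp13 varied with the number in another way, with 8.13 to 9.04 on arrays numbered 1, 8.12 to 10.71 on 2, 9.58 to 11.16 on 3, 10.99 to 11.71 on 4 and 10.57 on 5. A limma test of the title number within the 5 groups was added after the data were seen. It called Plau (adjusted p = 2.07e-05) and Mmp13 (adjusted p = 0.00125), 2 of the 9 genes, where 46.3% of all genes were called. The sets of arrays joined in Null and in WT were not separated in that model. Plau was most like Larp4b (r = 0.91), the kinase gene Gsk3b (r = 0.91) and the transcriptional repressor gene Zbtb7a (r = 0.90). The second Plau probe set followed the first with r = 0.96.

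**Figure D4:**
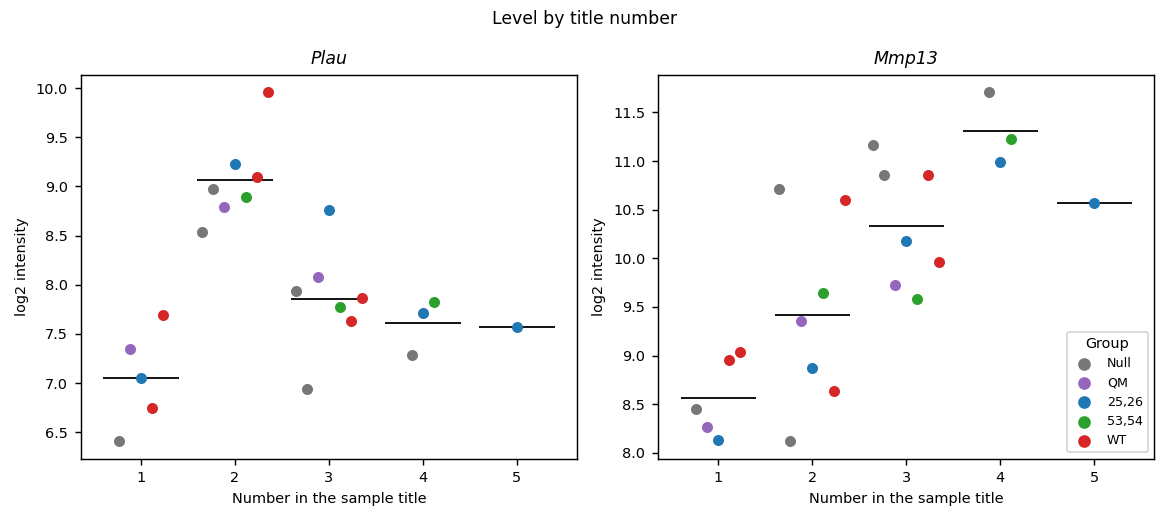
Log2 intensity (y axis) of Plau, left, and Mmp13, right, by the number in the sample title (x axis). Points are arrays coloured by group and bars are means over arrays with that number. All 7 arrays numbered 2 lie between 8.54 and 9.96 for Plau.

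Plat (probe set 1415806_at) was the steadier activator. Null ran from 10.37 to 11.19 (median 10.85) and WT from 9.94 to 11.24 (median 10.57). The 25,26 arrays had 10.70, 10.55, 10.74, 10.65 and 10.81, 53,54 had 10.89, 11.01 and 10.61, and QM had 10.74, 10.74 and 11.12. All groups overlapped. The difference of WT from Null was -0.24 ± 0.16 (95% interval -0.58 to 0.10; adjusted p = 0.345), and the other differences from Null were -0.15 ± 0.17 in 25,26, 0.00 ± 0.20 in 53,54 and 0.03 ± 0.20 in QM. LSL-WT Cre differed from LSL-WT Empty by -0.40 ± 0.22 (95% interval -0.87 to 0.07; adjusted p = 0.325). By title number the Cre arrays had 9.94, 10.81 and 10.45 and their Empty partners 10.37, 11.19 and 10.84. That SE leaves the pairing out. The second Plat probe set was dim, with a mean of 5.98, and followed the first only weakly (r = 0.22). Plat was most like Papolg, a poly(A) polymerase gene (r = 0.82), the phosphatase gene Cdc14b (r = 0.79) and the homeobox gene Hoxb3 (r = 0.78).

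Timp1, the inhibitor, separated the groups best. Its probe set 1460227_at had 14.18, 14.23 and 14.10 on the WT Cre arrays and 13.69, 13.65 and 13.55 on the LSL-WT Cre arrays. The Null Cre arrays had 14.01, 13.66 and 13.60, and the LSL-WT Empty arrays 13.70, 13.31 and 13.37. Lowest were the 25,26 arrays, at 13.41, 13.31, 13.10, 13.36 and 13.20. The 53,54 arrays had 13.49, 13.43 and 13.40, and the QM arrays 13.54, 13.57 and 13.40. All 25,26 and all 53,54 arrays lay below every WT array, and 1 QM array reached into the WT range. The order of means was 25,26 (13.28), 53,54 (13.44), QM (13.51), Null (13.61) and WT (13.90).

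In 25,26 Timp1 was lower than in WT by 0.63 on the log2 scale, with a log2 difference of -0.63 ± 0.13 (95% interval -0.90 to -0.36; adjusted p = 0.00462) and a ratio of 0.648. These arrays pair by title number, and with the number as a replicate block Timp1 differed by -0.61 ± 0.15 (adjusted p = 0.0119). The Timp1 call held when any 1 array of both groups was left out, but not with the LSL-WT Cre arrays alone as WT, where the difference was -0.35 (adjusted p = 0.141). In 53,54 the difference from WT was -0.46 ± 0.15 (adjusted p = 0.337) and in QM it was -0.40 ± 0.15 (adjusted p = 0.0919, or 0.0384 without WT replicate 3). Without any other single array of QM or WT the QM difference did not pass, with adjusted p up to 0.279. Against Null, Timp1 differed by 0.29 ± 0.12 in WT (adjusted p = 0.0976), -0.33 ± 0.13 in 25,26 (adjusted p = 0.178), -0.17 ± 0.15 in 53,54 and -0.10 ± 0.15 in QM. The WT value passed without WT replicate 3 (0.36) or Null replicate 4 (0.37). Without any other single array of WT or Null it did not pass, with values down to 0.23 and adjusted p up to 0.235.

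Timp1 lies on the X chromosome, and the groups held unequal shares of arrays high and low in Xist, the transcript of the inactive X. The median Xist level was 6.65 in Null, 12.19 in QM, 12.21 in 25,26, 6.72 in 53,54 and 11.54 in WT. The WT, 25,26 and QM groups thus differed from Null in Xist as well as in p53. In 25,26 the array low in Xist (replicate 4, at 6.63) had Timp1 at 13.36, within the range of the other 4. With the Xist level as a covariate the difference of 25,26 from WT stayed at -0.63 (adjusted p = 0.00434). In WT against Null the same covariate gave 0.27 for Timp1 (adjusted p = 0.190), -0.42 for Mmp3 (adjusted p = 0.222) and 0.83 for Mmp10 (adjusted p = 0.0394). Timp1 was most like Irak2, a kinase of interleukin-1 receptor signalling (r = 0.90), Csrp1, a LIM-domain protein gene (r = 0.88), and Pmepa1, a TGF-beta-induced membrane protein gene (r = 0.86).

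The WT and Null groups each joined 2 kinds of cells, so wild-type p53 was also compared in 2 separate comparisons. LSL-WT Cre against LSL-WT Empty compares the same kind of cells given either virus. WT Cre against Null Cre compares cells titled WT with separate p53-null cells. In LSL-WT cells, Cre against Empty virus, 0 of 9 genes passed, 1 had an unadjusted p under 0.05, and 11.7% of all genes passed. Mmp10 was the nearest, at 1.08 ± 0.38 (95% interval 0.28 to 1.88; adjusted p = 0.0779), with overlap. The arrays of this comparison pair by title number, and with the number as a replicate block the difference was 1.08 with an adjusted p of 0.0443. Without the block, it was 1.58 when Null replicate 3 was left out (adjusted p = 0.00759) and 0.57 when Null replicate 2 was left out (adjusted p = 0.384), the highest and lowest of the 6 such values. Mmp3 and Timp1 differed by -0.10 ± 0.31 and 0.17 ± 0.12 there.

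In WT Cre against Null Cre, 3 of 9 genes passed, where 15.9% of all genes did. Mmp3 was lower by 1.21 on the log2 scale (-1.21 ± 0.31, adjusted p = 0.0111) and Timp1 higher by 0.42 ± 0.12 (adjusted p = 0.0193), both without overlap. Mmp9 was lower, at -1.66 ± 0.53 (adjusted p = 0.0389), with overlap. The 3 arrays of Mmp13 in WT Cre (9.04, 10.60 and 9.96) lay below those in Null Cre (10.71, 11.16 and 11.71), by -1.33 ± 0.79 (adjusted p = 0.307). The Mmp9 call ended without Null replicate 4 (-0.66, adjusted p = 0.191), without WT replicate 4 (-1.47) or without WT replicate 6 (-1.33), and with strain as a covariate (-1.59, adjusted p = 0.0542). All 3 Null Cre arrays and 2 of the 3 WT Cre arrays had the 129/Sv background. The Mmp3 call ended without WT replicate 4 (-0.84, adjusted p = 0.0854). The Timp1 call ended without Null replicate 5 (0.37), Null replicate 6 (0.34), WT replicate 4 (0.41) or WT replicate 5 (0.39). Fitted on these 6 arrays alone, 0 of the 3 passed (adjusted p of 0.0771 to 0.2997).

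All 3 WT Cre arrays were high in Xist and all 3 Null Cre arrays low, so sex and p53 cannot be told apart within these 6 arrays. With Xist as a covariate over all arrays the differences were -1.59 for Mmp9 (adjusted p = 0.139), -0.84 for Mmp3 (adjusted p = 0.132) and 0.43 for Timp1 (adjusted p = 0.0614). Markers of cell identity moved as well: the summed fibroblast markers ran from 72930 to 104800 in WT Cre and from 113000 to 151500 in Null Cre, and the 6 epithelial markers from 4397 to 6136 and from 1839 to 2595. Their part in these results was not tested. The difference between both comparisons of wild-type p53 was itself tested and 0 of 9 genes passed, with 0.00655% of all genes. With limma 2 genes had an unadjusted p under 0.05, Mmp3 at -1.11 ± 0.44 (adjusted p = 0.505) and Mmp9 at -1.74 ± 0.76 (adjusted p = 0.591). An unlike difference in the separate comparisons was therefore not shown.

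**Figure D5:**
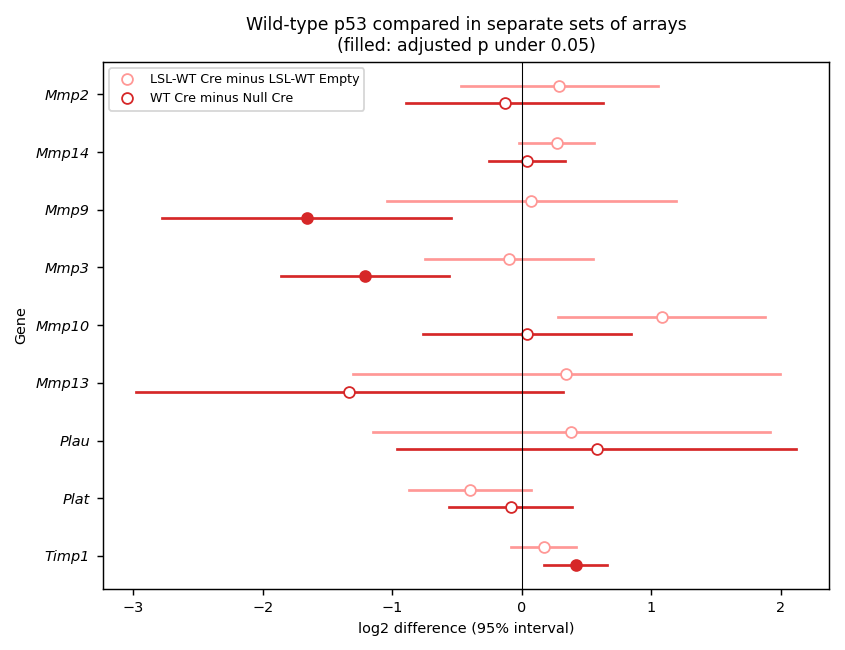
Log2 differences (x axis) with 95% intervals of the 9 genes (y axis) for LSL-WT Cre minus LSL-WT Empty (light) and WT Cre minus Null Cre (dark), n = 3 and 3 in each. Filled points passed an adjusted p of 0.05: Mmp9 (-1.66), Mmp3 (-1.21) and Timp1 (0.42), all in WT Cre minus Null Cre.

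Timp1 also differed between the sets with wild-type p53. WT Cre exceeded LSL-WT Cre by 0.54 ± 0.12 (adjusted p = 0.0304), without overlap. It was the 1 gene of 9 to pass in this contrast, added after the data were seen, where 0.983% of all genes passed. Timp1 in WT Cre (14.10 to 14.23) was above every other array in the series, and in LSL-WT Cre (13.55 to 13.69) it overlapped Null.

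Other genes of the same systems were counted from lists of related genes. Of 11 further metalloproteinases tested, 2 passed in WT against Null, where 22.7% of all genes did: Mmp1a, a collagenase gene, rose by 1.30 ± 0.42 (adjusted p = 0.0267), and Mmp19 fell, at -0.83 ± 0.30 (adjusted p = 0.0476). Mmp19 was also lower in WT Cre than in Null Cre (-1.04 ± 0.26) and higher in Null Cre than in LSL-WT Empty (1.28 ± 0.26, adjusted p = 0.0472). In the other 8 group contrasts 0 of the 11 passed with limma, and 0 to 3 had an unadjusted p under 0.05. The share of all genes that passed in those contrasts ran from 0.0131% to 19.6%. The list's median difference in WT against Null was 0.03, against 0.00 over all genes.

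Of 11 further genes of the plasminogen system, 0 passed in any of the 9 group contrasts with limma, and 0 to 2 had an unadjusted p under 0.05. The share of all genes that passed ran from 0.0131% in QM against Null to 22.7% in WT against Null. Among the 11 were the urokinase receptor Plaur, the inhibitor Serpinb2 and the plasminogen-binding pair Anxa2 and S100a10. In WT Cre against Null Cre, where 15.9% of all genes passed, 1 of the 11 did. It was Hgf, the hepatocyte growth factor, whose precursor Plau can cleave, at -1.06 ± 0.25 (adjusted p = 0.00603). Plg itself, the substrate of both activators, lay between 4.51 and 5.12 over all arrays, near the filter level of 4.79.

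Of 11 other inhibitors, activators and docking proteins of metalloproteinases, 4 rose in WT against Null and 0 fell, where 22.7% of all genes were called, and the list's median was 0.45, against 0.00 over all genes. Timp2, a second tissue inhibitor, rose by 0.54 ± 0.09 (adjusted p = 9.40e-05). Reck, a membrane-anchored inhibitor, rose by 0.81 ± 0.25 (adjusted p = 0.0216), Cd44, the hyaluronan receptor to which Mmp9 can bind, by 0.45 ± 0.15 (adjusted p = 0.0309), and Bsg, the inducer of metalloproteinases known as Emmprin, by 0.35 ± 0.11 (adjusted p = 0.0195). In 25,26 against WT, where 7.70% of all genes were called, 3 fell: Timp2 (-0.42 ± 0.09), Reck (-1.02 ± 0.26) and Bsg (-0.37 ± 0.11). In QM against WT, where 13.9% were, 2 fell, Timp2 (-0.49 ± 0.11) and Reck (-1.23 ± 0.31). With limma 0 passed in 53,54 against WT, in 25,26 against Null and in QM against Null (1, 0 and 0 at an unadjusted p under 0.05). In those contrasts 0.367%, 4.30% and 0.0131% of all genes passed. In 53,54 against Null, Cd44 rose by 0.55 ± 0.18. Timp2 rose in both separate comparisons of wild-type p53. It rose by 0.36 ± 0.10 in LSL-WT, Cre against Empty virus (adjusted p = 0.0238), and by 0.72 ± 0.10 in WT Cre against Null Cre (adjusted p = 7.91e-05). In the latter Reck (1.18 ± 0.32) and Bsg (0.52 ± 0.14) rose too.

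Of 17 tested ADAM and ADAMTS proteases, the relatives with a disintegrin domain, 2 rose and 2 fell in WT against Null, near the 22.7% of all genes called: Adam15 (0.53 ± 0.16) and Adamts6 (0.53 ± 0.19) rose, and the aggrecan-cutting Adamts9 (-0.84 ± 0.21) and Adamts4 (-0.73 ± 0.23) fell. Adamts9 also fell against Null in 25,26 (-0.82 ± 0.22) and in 53,54 (-0.89 ± 0.26). Adamts6 was lower than in WT in 25,26 (-0.77 ± 0.20) and in QM (-0.91 ± 0.23). In LSL-WT cells, Cre against Empty virus, where 11.7% of all genes were called, Adamts6 rose (0.73 ± 0.23). In WT Cre against Null Cre, where 15.9% were, 3 fell, with Adamts9 at -1.30 ± 0.22, and 1 rose.

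Of 16 AP-1, Ets and related transcription factors, 1 rose in WT against Null, the Ets factor Elk3 by 0.17 ± 0.05 (adjusted p = 0.0260), where 22.7% of all genes were called. In 53,54 against Null, where 19.6% were, 2 rose, Elk3 by 0.21 ± 0.07 and the stress factor Atf3 by 1.21 ± 0.41 (adjusted p = 0.0423). In the other 7 group contrasts 0 passed with limma (0 to 3 at an unadjusted p under 0.05), with Fos, Fosl1, Jun and Junb among those tested. The share of all genes called in those contrasts ran from 0.0131% to 13.9%. In the separate comparisons of wild-type p53 0 passed as well, where 11.7% of all genes did in LSL-WT and 15.9% in WT Cre against Null Cre. With limma 1 had an unadjusted p under 0.05 in LSL-WT and 2 in WT Cre against Null Cre.

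The cells were labelled fibroblasts, and all 10 fibroblast markers lay above the filter level on every array, with Col1a2 at 13.58 to 14.70 and Vim at 14.52 to 14.72. Of the markers of other cells, 6 of 8 macrophage, 5 of 6 neutrophil, 4 of 5 endothelial, 6 of 6 epithelial and 4 of 5 cartilage and bone genes passed the filter. The epithelial gene Krt18 lay between 10.08 and 12.62 and Sox9 between 9.40 and 10.35. Those that did not pass were Ptprc and Itgam of leukocytes, S100a9 of neutrophils, Pecam1 of endothelium and Ibsp of bone. Ptprc did not exceed 4.46 and Pecam1 did not exceed 4.72 on any array. In WT against Null, where 22.7% of all genes passed, 1 of 6 tested macrophage markers did, Cd68, a lysosomal protein gene (1.25 ± 0.30). Of 6 epithelial markers 3 passed there, Dsp, Krt19 and Krt18 (3.10 ± 0.42, 1.28 ± 0.36 and 0.90 ± 0.27). Array medians ran from 59.9 to 64.2 in intensity. The transcripts of p53 and of H-Ras were not analysed here, so the targeted gene gives no check of the labels.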

How the data were processed

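RNA of 23 samples was measured on Affymetrix oligonucleotide arrays. The authors deposited 1 intensity per probe set and sample on a linear scale, made with RMA per the submitters' processing notes, with no version or options stated. RMA as usually run corrects background and equalises the distribution of values between arrays, in which case a shift shared by all genes would not show. Values were taken to log2. Of 45101 probe sets, 64 controls, 932 with several symbols and 9160 without a listed symbol were left out, and a gene was represented by its brightest probe set. A gene entered the tests if 3 or more arrays exceeded the 30th percentile of the whole table (log2 4.79). A model of 5 group means over all arrays was fitted, and one of 7 sets of arrays for comparisons between such sets. Both used limma 3.58.1 in R 4.3.3, with two-sided moderated tests, Benjamini-Hochberg adjustment over 15266 genes and a threshold of 0.05. With 3 to 6 arrays in a group, their number limits the precision. The method was tested on simulated data.

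The members and all lists (further metalloproteinases, plasminogen system, inhibitors and activators, ADAM and ADAMTS proteases, AP-1 and Ets factors, and markers of fibroblasts, macrophages, neutrophils, endothelium, epithelium, and cartilage and bone) were chosen with earlier results of these data known. Every member is named, with up to 4 called genes per list and comparison, and the 3 genes with the highest r over the 23 arrays for each member. The neutrophil list called 0 of 5 and the endothelial list 0 of 4 in each of the 9 group contrasts with limma (at most 0 and 1 at an unadjusted p under 0.05). The share of all genes called in those contrasts ran from 0.0131% to 22.7%. The endothelial gene Tek passed in WT Cre against Null Cre (0.79 ± 0.22), where 15.9% of all genes did. The cartilage and bone list called 1 of 4 in 53,54 against Null, Col2a1 (0.89 ± 0.31), where 19.6% of all genes passed. It called 1 of 4 in LSL-WT Cre against LSL-WT Empty, Acan (-0.80 ± 0.19), where 11.7% of all genes passed.

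Equal title numbers were taken to pair arrays where every same-number pair had residuals that correlated over 0.1 and at least 3 pairs existed. This held for LSL-WT Cre with LSL-WT Empty (3 of 3 pairs, median 0.736), 25,26 with WT (6 of 6) and 53,54 with Null (5 of 5), and not for WT with Null (9 of 10). Promoters came from RefSeq (GRCm38.p6), which matched 5 of the 9 genes by symbol. Mmp2, Mmp9, Plau and Plat had no entry. The alternatives were other filters, the mean or all probe sets of a gene, quantile normalization, covariates for strain and Xist, the title number as a block, other variances, fewer arrays and each array left out.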

Additional observations from a re-analysis of the deposited data

Results flagged for a closer look

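Of 27 sets of values (9 genes in the Null, WT and 25,26 groups), 3 had an array far from the others, where chance alone flags about 1 set in 20. Mmp2 in Null replicate 4 was the highest of its group at 11.87, with the next array at 10.43, a gap of 0.73 of the group's range. Mmp9 in the same array stood at 10.18 against 7.26, a gap of 0.711 of the range. Mmp9 in WT replicate 5 stood at 7.56 against 6.47, a gap of 0.641 of the range. Both arrays carry the title number 2 and the 129 background.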

How the results depend on the processing

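No call of a single gene reversed its direction in any alternative. Over the single-gene values, 29 calls were lost, 37 were gained and 157 differences that passed no test changed sign. Counts of called members moved as follows. Over the 5 groups the count of 1 became 2 with strain or with Xist as a covariate (Mmp3 joined), and 1 to 2 with an array left out. In WT against Null 0 became 1 with the stricter filter or strain (Mmp3) or Xist (Mmp10) and 2 with Null Cre alone (Mmp9 and Mmp3), and 0 to 2 with an array left out. In 25,26 against Null 0 became 1 with Null Cre alone (Mmp9). In 53,54 against Null 0 became 1 with the stricter filter or Xist (Mmp10) and with Null Cre alone (Mmp9), and 0 to 1 with an array left out. In 25,26 against WT 2 became 1 (Timp1) with no filter, all probe sets, the replicate block or the compared arrays alone, 0 with LSL-WT Cre alone, and 1 to 2 with an array left out. In QM against WT 0 became 1 (Mmp3) with the stricter filter, quantile normalization, the replicate block (0.88, adjusted p = 0.0446 with limma), strain, Xist or trended robust variances, and 0 to 2 with an array left out. In LSL-WT Cre against LSL-WT Empty 0 became 1 (Mmp10) with the replicate block, strain or Xist, and 0 to 1 with an array left out. In WT Cre against Null Cre 3 became 2 with strain (Mmp9 lost), 0 with Xist or with the compared arrays alone, and 0 to 2 with an array left out. The cause of these moves was not tested. The replicate block changed no call of a single gene besides Mmp3 in 25,26 and in QM against WT and Mmp10 in LSL-WT. All 9 genes lay above the filter level on every array, and the number of arrays limits the precision.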
